A study of Mus musculus with 8 samples.

Results

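The miR-15/16 family is a group of microRNAs (miRs) that share the seed, the bases near the 5′ end with which a miR recognizes its target mRNAs. The 7 guide strands examined here were mmu-miR-15a-5p, mmu-miR-15b-5p, mmu-miR-16-5p, mmu-miR-195a-5p, mmu-miR-497a-5p, mmu-miR-322-5p and mmu-miR-503-5p, chosen by name from the 1755 miRs of the count table. The choice was not made on their levels, but earlier results of these data were known when it was made. They were measured in extracellular vesicles (EVs) that muscle of male C57BL/6J mice, bought at 10 to 12 weeks of age, released into serum-free medium over 24 h. OXI-EV came from oxidative muscle, the soleus with the red gastrocnemius, and GLY-EV came from glycolytic muscle, the whole quadriceps, with 4 libraries in each group and muscle from a single leg of each animal that was not pooled. The labels name no drug or genetic change in either group. Whole muscle was incubated, so the vesicles can come from vessel, blood and connective tissue cells as well as from muscle fibers, and fiber type was set by the choice of muscle.

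Mature miRs guide Argonaute proteins to mRNAs, which are then translated less or degraded. The miR-15/16 family is known for restraining cell cycle and survival genes such as the cyclins Ccnd1 and Ccne1, the checkpoint kinase Chek1 and the anti-apoptotic gene Bcl2, and for targeting Vegfa, the main growth factor of blood vessels. Its members are made from small clusters of hairpins. In cultured mouse myoblasts miR-322-5p and miR-503-5p are known to rise as the cells leave the cell cycle, and in the mouse heart miR-195a-5p rises as cardiomyocytes stop dividing.

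The mature sequences are shown because they define the family and show how far its members can be told apart by sequencing. They are the RefSeq entries placed on GRCm38.p6, and capitals mark bases 2 to 8, counted from the 5′ end:
mmu-miR-15a-5p: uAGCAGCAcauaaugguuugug
mmu-miR-15b-5p: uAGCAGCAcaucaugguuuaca
mmu-miR-16-5p: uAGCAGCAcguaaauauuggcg
mmu-miR-195a-5p: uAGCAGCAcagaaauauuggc
mmu-miR-497a-5p: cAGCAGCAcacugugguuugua
mmu-miR-322-5p: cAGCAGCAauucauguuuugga
mmu-miR-503-5p: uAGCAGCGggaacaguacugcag

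All 7 members were matched to a mature sequence, and 6 of the 7 had the same bases 2 to 8. The exception was miR-503-5p, which shares bases 2 to 7 and differs from miR-322-5p at the eighth base (A8G). The closest pair was miR-195a-5p with miR-16-5p, at 19 of 21 compared positions, with the substitutions G10A and U11G from the latter to the former. The sources used here do not state how mismatched reads were assigned, so a small share of the much more abundant miR-16-5p could be counted as miR-195a-5p. The cluster partners were less alike, with 12 of 21 positions identical between miR-195a-5p and miR-497a-5p and 11 of 22 between miR-322-5p and miR-503-5p.

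The members lie in 4 clusters of GRCm38. Mir16-1 (chr14:61631880-61631972) and Mir15a (chr14:61632027-61632110) lie on the minus strand 54 bases apart, inside introns of the long noncoding gene Dleu2 in all 8 annotated Dleu2 transcripts that span them. Mir15b (chr3:69009772-69009835) and Mir16-2 (chr3:69009902-69009996) lie on the plus strand 66 bases apart in introns of Smc4, which encodes a subunit of the condensin complex, in all 5 of its spanning transcripts. Mir497 (chr11:70234717-70234800) and Mir195a (chr11:70235042-70235135) lie on the plus strand 241 bases apart, and Mir503 (chrX:53053984-53054054) and Mir322 (chrX:53054255-53054349) on the minus strand 200 bases apart. No GENCODE gene spans these hairpins apart from genes whose names begin with Mir, which were left aside. A host gene named after its miR would thus not be seen. The mature miR-16-5p sequence is the same from Mir16-1 and Mir16-2, so its count is the sum of both loci. Mir497b (chr11:70234692-70234816) overlaps Mir497 on the other strand and makes a miR of its own.

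OXI-EV libraries held 348730 to 572106 miR counts each and GLY-EV libraries 587068 to 1004011, from 4151145 to 4867396 and 5179262 to 7197716 mapped reads. Levels are given as counts per 1000000 mapped reads (CPM). The miR counts came to 21.3% to 31.8% of the reads assigned to miRs per OXI-EV library against 20.3% to 38.0% per GLY-EV library, highest in replicate 4 of both groups. Whether the counts are molecules rather than reads is not stated, so 1 count may stand for more reads in some libraries than in others, and scaling to the total miR count and shares of it avoid mixing both units. Differences are log2 fold changes, OXI-EV minus GLY-EV, with their standard error (SE) from edgeR's quasi-likelihood test on the counts with mapped reads as library size. The test ran on 1569 miRs, those reaching 10 counts in 4 or more of the 8 libraries, among them all 7 members, and p-values were adjusted over these miRs by the Benjamini-Hochberg method with a threshold of 0.05. Over the 1569 miRs the log2 fold change had a median of 0.48 on this scale, 0.09 with TMM scaling, which assumes that most miRs are equal, and 0.98 per total miR count, so that values relative to this median are given as well. The p-values cover the spread between these libraries, and whether both muscles of a mouse were used is not stated for these libraries, although the study ran paired tests on other measurements of OXI-EV and GLY-EV.

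Of the family, miR-16-5p was lower in OXI-EV and held the largest difference, at 338 ± 106 CPM against 1524 ± 383 CPM in GLY-EV (mean ± SD, n = 4 each). It was also by far the most abundant member, the 9th of the 1755 miRs by mean count. Of the 7 members, 1 was lower past the threshold and none was higher, beside 1.78% of all miRs tested that were lower. With TMM scaling 3 of the 7 were lower, miR-16-5p, miR-195a-5p and miR-322-5p, beside 5.42% of all miRs tested. The median log2 fold change of the 7 members was -0.56, against the 0.48 over all tested, and 6 of the 7 values were below 0.

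The calls followed abundance in the table as a whole. None of the 1440 tested miRs with a mean count under 100 was called by edgeR on mapped reads in either direction, although 150 of them had an unadjusted p under 0.05, and 19 were called with TMM scaling and 31 by DESeq2 on mapped reads. Of the family, 5 members lay in that range. Of the 129 miRs with a mean count of at least 100, 21.7% were lower in OXI-EV on mapped reads and 51.2% with TMM scaling. Their median log2 fold change was -1.12. miR-16-5p was 1 of 27 miRs with a mean count of at least 1000, of which 25 had a log2 fold change below 0 and 18 were called lower, with a median of -1.87. Its log2 fold change was the 20th lowest of the 1569 and the 18th lowest of the 129.

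**Figure D1:**
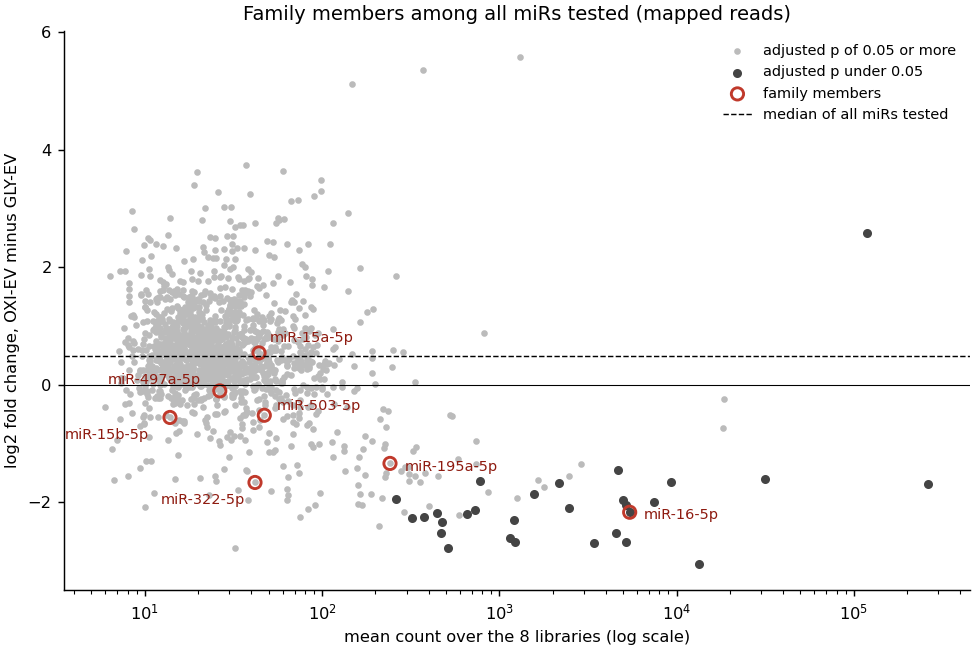
Log2 fold change (OXI-EV minus GLY-EV, mapped reads) of the 1569 tested miRs against their mean count over the 8 libraries on a log axis; dark points have an adjusted p under 0.05 and red circles are the 7 members. miR-16-5p sits among the abundant miRs, most of which lie below 0, while the 5 members with mean counts under 100 sit in the range without calls.

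The Mir15a/Mir16-1 and Mir15b/Mir16-2 clusters share miR-16-5p, which is known as one of the most widely expressed miRs and is abundant in red blood cells as well as in muscle. The deposited counts of miR-16-5p were 780, 1668, 1765 and 1910 in OXI-EV replicates 1 to 4 and 8792, 10551, 7293 and 10785 in GLY-EV replicates 1 to 4. Every GLY-EV library was far above every OXI-EV library, by either measure, and OXI-EV replicate 1 was the lowest of all. The groups likewise did not overlap, with OXI-EV lower, for 4.53% of the miRs tested. The log2 fold change of miR-16-5p was -2.17 (SE 0.34, adjusted p = 0.00489 from edgeR's quasi-likelihood test), or 4.51-fold higher in GLY-EV. Some library names carry the same number in both groups (1, 4 and 5), whose meaning the labels do not give, and in these 3 pairs the log2 ratios were -2.82, -1.76 and -2.41. With TMM scaling the log2 fold change was -2.71 (adjusted p = 0.00123), and per total miR count it was -1.69 (adjusted p = 0.00440, both from edgeR). Relative to the median of all miRs it was -2.66 on mapped reads and -2.80 with TMM. Relative to that of the 129 abundant miRs it was -1.05 on mapped reads. In vesicle RNA taken from a whole tissue, fewer vesicles from a cell type and less RNA per vesicle cannot be told apart.

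Mir16-1 and Mir16-2 can be told apart only by their other strands. The strand of Mir16-2, miR-16-2-3p, was counted, and that of Mir16-1 is not analysed here. It is shown because it is the only product of a single miR-16 locus that was measured:
mmu-miR-16-2-3p: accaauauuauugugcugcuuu

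miR-16-2-3p had counts of 10, 23, 14 and 14 in OXI-EV and 59, 83, 53 and 44 in GLY-EV. The groups did not overlap, with OXI-EV lower, as for 4.53% of the miRs tested. The mean was 3.43 ± 1.44 CPM for OXI-EV against 9.46 ± 1.43 CPM for GLY-EV (SD, n = 4 each). Its log2 fold change was -1.46 (SE 0.47), which did not pass on mapped reads (adjusted p = 0.197) and did pass with TMM scaling (-2.11, adjusted p = 0.0235, both from edgeR). The TMM call was lost without OXI-EV replicate 1 (adjusted p = 0.0647), OXI-EV replicate 3 (0.0709) or OXI-EV replicate 4 (0.0654). DESeq2 on mapped reads called the strand lower (adjusted p = 0.0151). The strand was scarce beside the guide. It stood at 1.05 ± 0.33 counts per 100 counts of miR-16-5p for OXI-EV against 0.648 ± 0.167 for GLY-EV, with overlapping groups.

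No difference was called for either cluster partner of miR-16. miR-15a-5p, the partner of Mir16-1, had counts of 13, 50, 17 and 110 in OXI-EV and 33, 20, 13 and 97 in GLY-EV. The groups overlapped throughout, and replicate 4 was the highest library in both. Its log2 fold change was 0.54 (SE 0.80, adjusted p = 0.770 from edgeR), close to the median of all miRs (0.06 above it). It was -0.19 without OXI-EV replicate 4 and 1.65 without GLY-EV replicate 4. In the 3 pairs of libraries with equal numbers the log2 ratios of miR-15a-5p differed in sign, at -0.67, 0.68 and 0.27.

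miR-15b-5p, the partner of Mir16-2, was the least abundant member, with counts of 3, 10, 0 and 26 in OXI-EV and 22, 0, 10 and 40 in GLY-EV. A single library of each group had no count, which allows up to 0.642 CPM in OXI-EV replicate 3 and 0.417 CPM in GLY-EV replicate 2 (3 counts, counting error only). No difference was called, with a log2 fold change of -0.56 (SE 1.16, adjusted p = 0.832 from edgeR) that was 0.36 without GLY-EV replicate 4. Its log2 ratios in the pairs numbered 1 and 5 were -2.20 and -0.53, and OXI-EV replicate 3, numbered 4, had no count. Its other strand, miR-15b-3p, had 0 to 19 counts per OXI-EV library against 2 to 20 per GLY-EV library. That strand of Mir15a is not analysed here.

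**Figure D2:**
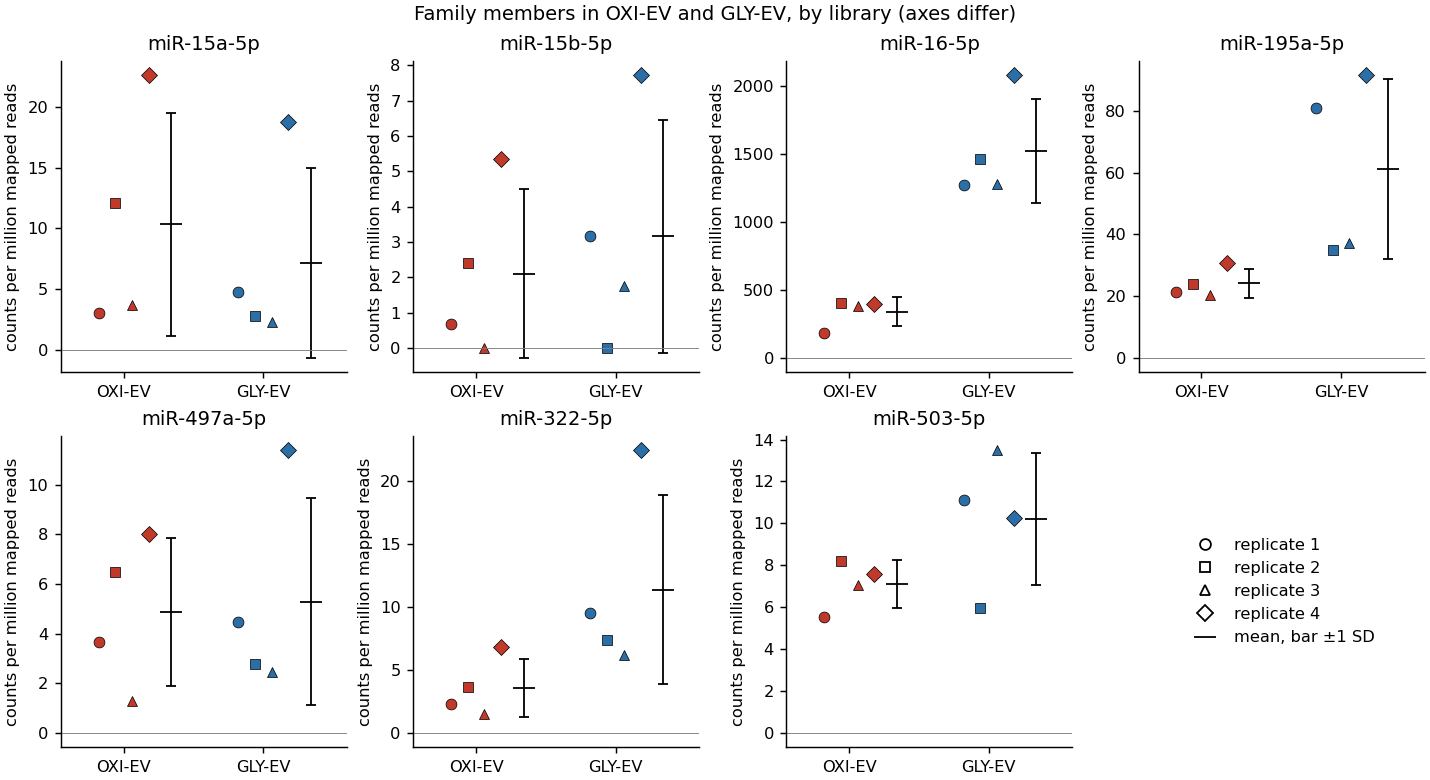
Levels of the 7 members in CPM, 1 panel per miR with its own axis; each symbol is a library and bars are the mean ± 1 SD of 4 libraries. The groups are separate, with OXI-EV lower, for miR-16-5p and miR-195a-5p, as for 4.53% of the miRs tested. Replicate 4 is the highest library of both groups for miR-15a-5p, miR-15b-5p, miR-195a-5p, miR-497a-5p and miR-322-5p.

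The Mir497 and Mir195a cluster held an abundant member whose groups did not overlap and a scarce member whose groups did. miR-195a-5p, which restrains cell cycle regulators in muscle and heart cells, was the second most abundant member, with counts of 93, 99, 95 and 150 in OXI-EV and 560, 252, 212 and 474 in GLY-EV. The groups did not overlap, with OXI-EV lower, as for 4.53% of the miRs tested. The GLY-EV libraries fell into a higher pair (replicates 1 and 4) and a lower pair. The means were 24.1 ± 4.7 CPM for OXI-EV against 61.1 ± 29.3 CPM for GLY-EV (SD, n = 4 each). On mapped reads the log2 fold change did not pass the threshold (-1.34, SE 0.48, unadjusted p = 0.0163 and adjusted p = 0.250 from edgeR), and with TMM scaling it did (-1.68, adjusted p = 0.0114). It also passed on mapped reads by DESeq2 (adjusted p = 0.0209) and by edgeR among miRs of mean count 100 or more (adjusted p = 0.0291). The TMM call was lost without OXI-EV replicate 2 (adjusted p = 0.0518) and without OXI-EV replicate 3 (adjusted p = 0.0507). Relative to the median of all miRs the value was -1.82, and relative to that of the 129 abundant miRs it was -0.22. In the 3 pairs of libraries with equal numbers the log2 ratios of miR-195a-5p were -1.92, -0.87 and -1.57.

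miR-497a-5p, its cluster partner, had counts of 16, 27, 6 and 39 in OXI-EV and 31, 20, 14 and 59 in GLY-EV. The groups overlapped, and the log2 fold change was -0.11 (SE 0.65, adjusted p = 0.952 from edgeR). It turned positive without OXI-EV replicate 1 (0.01), without OXI-EV replicate 3 (0.21) and without GLY-EV replicate 4 (0.58). In the 3 pairs of libraries with equal numbers the log2 ratios were -0.28, -0.93 and -0.51. The counts of miR-497a-5p per 100 counts of miR-195a-5p were 17.2, 27.3, 6.32 and 26.0 in OXI-EV and 5.54, 7.94, 6.60 and 12.4 in GLY-EV. OXI-EV replicate 3 lay within the GLY-EV range and the other OXI-EV libraries above it.

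The other products of this locus gave no call. miR-497a-3p had counts of 12 to 48 per OXI-EV library against 6 to 30 per GLY-EV library, and miR-195a-3p had 0 to 12 and 6 to 20, with 0 in OXI-EV replicates 1 and 4. The miR from the opposite strand, miR-497b, had 22 to 35 counts per OXI-EV library against 19 to 37 per GLY-EV library (log2 fold change 0.54, SE 0.45, adjusted p = 0.572 from edgeR). Whether the counting used the strand is not given in the sources used here.

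The Mir503 and Mir322 cluster on the X chromosome held the member with the second largest difference. miR-322-5p, the mouse form of human miR-424, had counts of 10, 15, 7 and 33 in OXI-EV and 66, 53, 35 and 116 in GLY-EV. Every GLY-EV count was above every OXI-EV count, but per mapped read OXI-EV replicate 4 (6.78 CPM) lay above GLY-EV replicate 3 (6.13 CPM). The mean was 3.55 ± 2.32 CPM for OXI-EV against 11.4 ± 7.5 CPM for GLY-EV (SD, n = 4 each). The log2 fold change was -1.67 (SE 0.62, unadjusted p = 0.0188 and adjusted p = 0.263 from edgeR), and with TMM scaling -2.05 (adjusted p = 0.0171). The TMM call was lost without OXI-EV replicate 1 (adjusted p = 0.0638), OXI-EV replicate 2 (0.0571), OXI-EV replicate 3 (0.0507), GLY-EV replicate 2 (0.0577) or GLY-EV replicate 4 (0.0599). In the 3 pairs of libraries with equal numbers, whose meaning the labels do not give, the log2 ratios of miR-322-5p were -2.05, -2.03 and -1.72.

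miR-503-5p was the steadiest member in OXI-EV, with counts of 24, 34, 33 and 37, against 77, 43, 77 and 53 in GLY-EV. Every GLY-EV count was above every OXI-EV count, but the CPM overlapped through GLY-EV replicate 2 (5.97 CPM). The means were 7.09 ± 1.15 CPM and 10.2 ± 3.1 CPM (SD, n = 4 each), and no difference was called (log2 fold change -0.52, SE 0.45, adjusted p = 0.592 on mapped reads, and -0.98, adjusted p = 0.174 with TMM, both from edgeR). Its log2 ratios in the 3 pairs with equal numbers were -1.01, -0.93 and -0.43. miR-322-5p stood at 21.2 to 89.2 counts per 100 counts of miR-503-5p for OXI-EV against 45.5 to 219 for GLY-EV, with overlapping groups.

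The opposite strand of Mir322 had another pattern. miR-322-3p had counts of 21, 19, 20 and 276 in OXI-EV and 24, 15, 24 and 51 in GLY-EV. OXI-EV replicate 4 stood far above the other libraries, and the log2 fold change of 1.85 (SE 0.89, adjusted p = 0.354 from edgeR) was not past the threshold. In OXI-EV there were 210, 127, 286 and 836 counts of miR-322-3p per 100 counts of miR-322-5p, and in GLY-EV 36.4, 28.3, 68.6 and 44.0. The 3p strand thus outnumbered the 5p strand in each OXI-EV library and in no GLY-EV library. The groups did not overlap in counts per miR-322-5p count, with OXI-EV higher, for 60.4% of the other miRs tested, so that this split was common among the miRs of the table. miR-503-3p had 8 to 28 counts per OXI-EV library against 10 to 29 per GLY-EV library.

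The X cluster goes on with Mir351, Mir542 and 3 miR-450 hairpins, of which 8 mature strands were counted and 7 tested. None was called by edgeR on mapped reads (1 at an unadjusted p under 0.05), with TMM scaling or by DESeq2, which gave miR-450a-2-3p no adjusted p, and their median log2 fold change was 0.40, close to the 0.48 of all miRs. miR-351-5p had 12 to 31 counts per OXI-EV library against 10 to 50 per GLY-EV library. miR-450a-2-3p had the largest fold change among them, but it rested on 623 counts in OXI-EV replicate 1, with 15 to 45 in the other OXI-EV libraries and 15 to 33 in GLY-EV. miR-322-5p was called lower with TMM scaling and none of these neighbours was, and the difference between them was not tested.

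**Figure D3:**
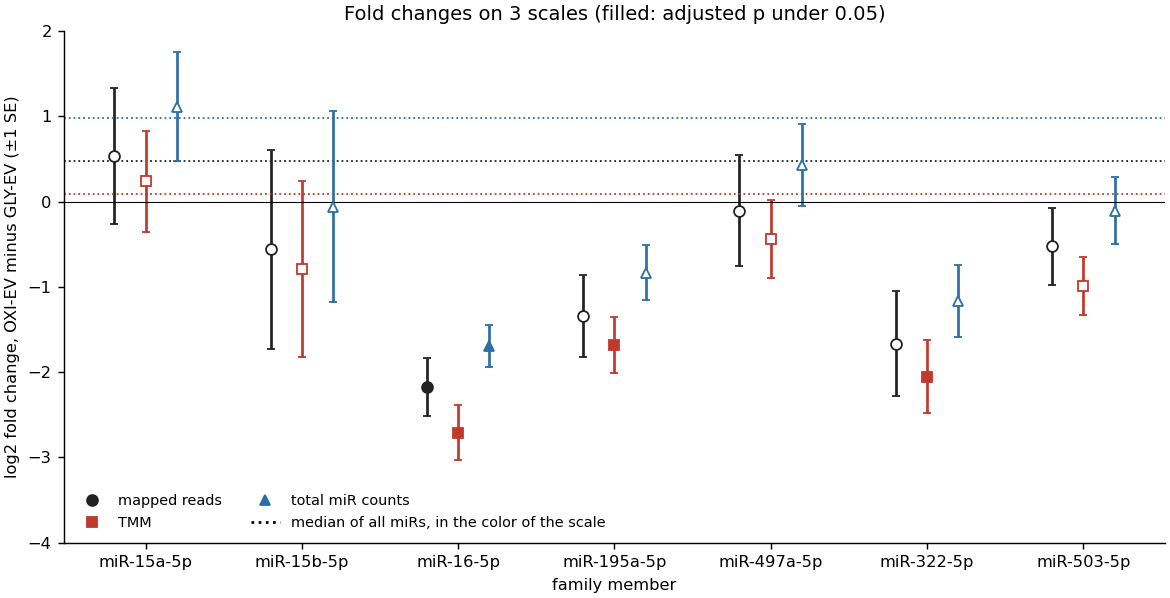
Log2 fold change ± 1 SE of each member on 3 scales, with dotted lines at the median of all tested miRs on the same scale. The members keep their order on all 3 scales except miR-15b-5p and miR-503-5p, which trade places. Filled symbols (adjusted p under 0.05) mark miR-16-5p on each scale and miR-195a-5p and miR-322-5p with TMM only.

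Within each library miR-16-5p supplied most of the family. The 7 members together held 0.256%, 0.479%, 0.551% and 0.403% of the miR counts in OXI-EV replicates 1 to 4 and 1.18%, 1.41%, 1.30% and 1.16% in GLY-EV replicates 1 to 4. The widest 95% Wilson intervals, those of replicate 3 of each group, were 0.527% to 0.577% for OXI-EV and 1.28% to 1.33% for GLY-EV, which cover counting error only and are small beside the gap between the groups. The mean share was 0.422% ± 0.126 for OXI-EV against 1.26% ± 0.12 for GLY-EV (SD, n = 4 each), and with the abundant muscle miRs miR-1a-3p and miR-206-3p taken out of the denominator it was 1.37% ± 0.37 and 3.16% ± 0.38. miR-16-5p made up 82.9% to 91.8% of the family's counts in OXI-EV, against 91.8% to 96.5% in GLY-EV. The groups overlapped slightly, as OXI-EV replicate 3 (91.784%) lay above GLY-EV replicate 1 (91.765%). Without miR-16-5p the other 6 members summed to 33.8 to 81.2 CPM per OXI-EV library against 53.9 to 162 CPM per GLY-EV library, and the groups overlapped.

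The order of the members was the same at the top in both groups and only partly settled below. miR-16-5p was 14.0 times as abundant as miR-195a-5p in OXI-EV and 24.9 times in GLY-EV, on mean CPM, with no overlap. In GLY-EV miR-195a-5p was 5.38 times as abundant as miR-322-5p, again with no overlap, and it was followed by miR-503-5p, miR-15a-5p, miR-497a-5p and miR-15b-5p, each overlapping its neighbour. In OXI-EV miR-195a-5p was followed by miR-15a-5p, miR-503-5p, miR-497a-5p, miR-322-5p and miR-15b-5p, and every step below miR-16-5p overlapped. Within single libraries, miR-195a-5p exceeded miR-15a-5p and miR-322-5p exceeded miR-15b-5p in 4 of 4 OXI-EV libraries. miR-497a-5p exceeded miR-15b-5p in 4 of 4 GLY-EV libraries, and the other overlapping steps held in 2 or 3 of 4. miR-322-5p thus stood higher in the order in GLY-EV than in OXI-EV, and in both it overlapped the members next to it other than miR-195a-5p. CPM of different miRs also depend on how well each is captured in the library.

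Relative to miR-16-5p, the other members took up more of the family in OXI-EV on average. miR-15a-5p stood at 2.85 ± 2.12 counts per 100 counts of miR-16-5p for OXI-EV against 0.411 ± 0.338 for GLY-EV, and miR-503-5p at 2.23 ± 0.57 and 0.708 ± 0.309 (SD, n = 4 each). The groups did not overlap for these 2 of the 6 members, with OXI-EV higher, whereas they did not overlap for 80.2% of the other miRs tested. The ratios of miR-195a-5p were 11.9, 5.94, 5.38 and 7.85 in OXI-EV and 6.37, 2.39, 2.91 and 4.40 in GLY-EV, which overlapped. Those of miR-322-5p were 1.28, 0.899, 0.397 and 1.73 in OXI-EV and 0.751, 0.502, 0.480 and 1.08 in GLY-EV, the most similar of the 6 between the groups. miR-16-5p itself stood at 0.886 to 1.91 counts per 100 counts of miR-1a-3p per OXI-EV library against 1.97 to 2.48 per GLY-EV library, without overlap and with OXI-EV lower, as for 0.638% of the other miRs tested.

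**Figure D4:**
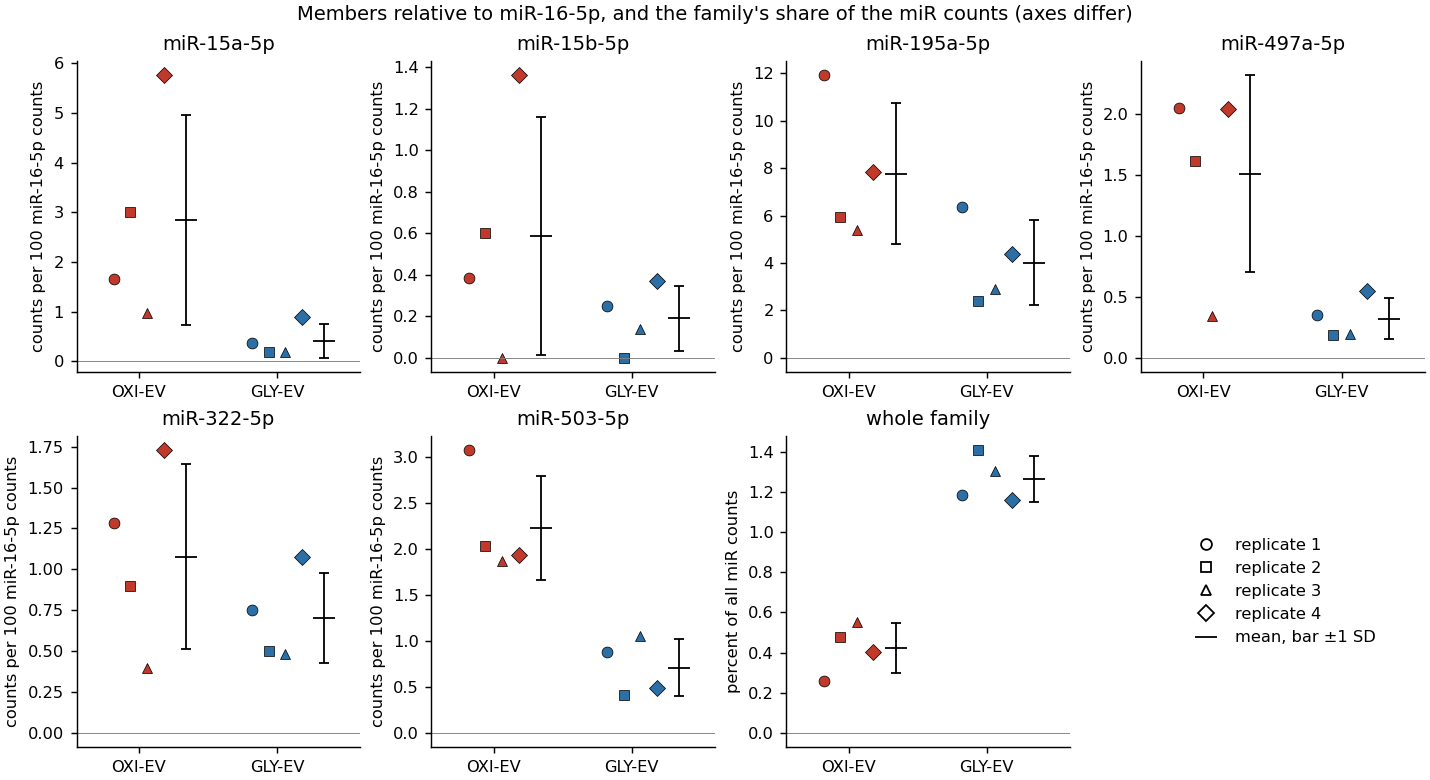
Counts of 6 members per 100 counts of miR-16-5p in the same library and, in the last panel, the share of all miR counts held by the 7 members; each symbol is a library and bars are the mean ± 1 SD of 4 libraries. The groups are separate for miR-15a-5p and miR-503-5p and for the family's share, which is 0.256% to 0.551% for OXI-EV and 1.16% to 1.41% for GLY-EV.

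The 5 miRs whose counts ran closest to those of miR-16-5p were miR-101a-3p, miR-199a-3p (listed together with miR-199b-3p), miR-181b-5p, miR-101b-3p and miR-101c. Likeness was the SD over the 8 libraries of the log2 ratio to miR-16-5p, with 0.5 added to each count, among the 129 other miRs with a mean count of at least 100. It was 0.16 for miR-101a-3p and 0.22 to 0.24 for the other 4, against a median of 0.83. miR-195a-5p ranked 57th of the 129 at 0.75, so its counts were not close to those of miR-16-5p. The 5 closest to miR-195a-5p itself were miR-99b-5p (SD 0.30), let-7e-5p, miR-1839-5p, let-7a-5p and miR-676-3p (up to 0.36). These SDs describe 8 libraries of 2 groups and are no test.

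3 further miRs of the table carry the family seed without being counted as members, among the 1517 table miRs with a reference sequence. They are shown because a target site for bases 2 to 8 does not separate them from the family:
mmu-miR-195b: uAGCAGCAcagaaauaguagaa
mmu-miR-6342: cAGCAGCAaucuggucuuugag
mmu-miR-6419: cAGCAGCAaucugacacaugga

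miR-195b differs from miR-195a-5p at 3 of the 21 compared positions and lies on chromosome 2. It had counts of 7, 27, 11 and 50 in OXI-EV and 10, 2, 8 and 16 in GLY-EV, with overlapping groups (log2 fold change 1.75, SE 0.75, adjusted p = 0.303 from edgeR). miR-6342 had 9 to 84 counts per OXI-EV library against 11 to 24 per GLY-EV library (log2 fold change 1.62, SE 0.67, adjusted p = 0.289 from edgeR), and miR-6419 had 19 to 46 and 22 to 63 (0.38, SE 0.55, adjusted p = 0.770). Before adjustment, miR-195b and miR-6342 had edgeR p-values of 0.0370 and 0.0325. None of the 3 was called with TMM scaling (adjusted p from 0.243 to 0.992) or by DESeq2, which gave miR-195b no adjusted p. All 3 fold changes were above 0 on mapped reads, as were 78.4% of those of all miRs tested, and that of miR-6419 was below their median. The counts of miR-16-5p exceeded the sum of the 3 in every library.

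Marker miRs of other cells were measured beside miR-16-5p, since red blood cells hold much of it. miR-451a, the defining miR of red blood cells, had counts of 15, 191, 28 and 27 in OXI-EV and 71, 27, 21 and 108 in GLY-EV. OXI-EV replicate 2 was the highest library and the groups overlapped, with a log2 fold change of 0.66 (SE 0.85, adjusted p = 0.733 from edgeR). The 3 erythroid miRs other than miR-486, miR-451a with both strands of miR-144, summed to 3.45 to 65.5 CPM per OXI-EV library against 5.70 to 29.5 CPM per GLY-EV library. The near-identical miR-486a-5p and miR-486b-5p, made by muscle fibers too, were lower in OXI-EV (log2 fold change -2.61, adjusted p = 0.00359, and -2.52, adjusted p = 0.00177). The 5 leukocyte and platelet miRs summed to 26.2 to 55.4 CPM per OXI-EV library against 36.1 to 131 CPM per GLY-EV library. None of them was called by edgeR on mapped reads (0 at an unadjusted p under 0.05, 0 by DESeq2). With TMM scaling 1 was lower, beside 5.42% of all miRs tested. The endothelial miR-126a strands summed to 53.1 to 198 CPM and 201 to 772 CPM, and the smooth muscle miRs miR-143-3p and miR-145a-5p to 265.3 to 503.4 CPM and 782 to 2031 CPM. Of these 4, miR-143-3p was lower in OXI-EV past the threshold on mapped reads, and all 4 with TMM scaling. All 4 had a mean count of at least 100. Of the 129 such miRs, 21.7% were lower on mapped reads and 51.2% with TMM scaling. Of the 3 muscle miRs, miR-1a-3p and miR-133a-3p were lower and miR-206-3p higher in OXI-EV past the threshold, and miR-1a-3p and miR-206-3p were the 2 most abundant miRs of the table. miR-23a-3p, to which miR-451a is compared to judge lysis of red blood cells, had 150 to 229 counts per OXI-EV library against 292 to 1762 per GLY-EV library. The counts of miR-451a per 100 counts of miR-23a-3p were 10.0, 99.0, 13.9 and 11.8 for OXI-EV and 17.9, 6.67, 7.19 and 6.13 for GLY-EV, which overlapped. On mapped reads miR-143-3p, miR-486a-5p, miR-486b-5p, miR-1a-3p and miR-133a-3p were thus lower past the threshold along with miR-16-5p. The log2 fold changes of miR-126a-3p, miR-126a-5p and miR-145a-5p were -1.93, -1.57 and -2.05 and did not pass (adjusted p = 0.103, 0.275 and 0.250 from edgeR). Of the 27 miRs with a mean count of at least 1000, 25 had a log2 fold change below 0. The part of these markers in the difference of miR-16-5p was not tested.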

How the data were processed

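The 8 small RNA libraries, 4 of OXI-EV and 4 of GLY-EV, were each made from a separate EV sample. The authors deposited raw counts of each miR, made with cutadapt and STAR on GRCm38 per the labels (versions and counting tool not given in the sources used here). The library kit marks molecules with unique molecular identifiers, and whether the deposited counts are of molecules or of reads is not given in the sources used here. The deposited fold changes, log2 fold changes, p-values and FDR are the authors' own comparison and were not used.

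The quasi-likelihood test of edgeR 4.0.16 (limma 3.58.1, R 4.3.3) was applied to the counts with the mapped reads as library size and no added normalization factor, with standard errors derived from the test statistic. Mapped reads were all read classes assigned to RNAs or to the genome. Sequences were read from RefSeq (GRCm38.p6) and hairpins were placed with GENCODE release 21. Shares, ratios and figures were made with Python 3.11.15 and pandas 2.3.3. No pair of libraries of a group was a duplicate (chi-square per degree of freedom 10.6 to 31.0).

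The members, marker lists and tests were chosen with earlier results of these data known. The miRs named are the members, table miRs with the same bases 2 to 8, other strands and cluster neighbours, the 5 miRs most like miR-16-5p and miR-195a-5p, and marker miRs. Alternatives were other scales, filters and tools (DESeq2 1.42.0, limma-voom), blocks by number, and leaving out each library. The fit was checked on simulated counts with the same dispersion for every miR and mapped reads as the true scale. That check does not bear on the choice of scale or on single outlying libraries.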

Additional observations from a re-analysis of the deposited data

Results flagged for a closer look

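Within a group of 4 libraries, 7 values among the members, their other strands, seed relatives and cluster neighbours stood apart from the other 3 libraries of their group by more than Dixon's 95% limit, in 50 groups examined. Chance flags about 1 in 20 where values are independent and normally distributed. Low counts from the same libraries need not be, so the 7 flags in 50 groups are a description. Of these, 2 were the lowest of their group: miR-16-5p in OXI-EV replicate 1 (179 CPM, 780 counts against 1668, 1765 and 1910) and miR-450a-5p in the same library (2.53 CPM, 11 counts against 21, 22 and 23).

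The other 5 were the highest of their group. In OXI-EV they were miR-322-3p in replicate 4 (56.7 CPM, 276 counts against 21, 19 and 20) and miR-450a-2-3p in replicate 1 (143 CPM, 623 counts against 45, 15 and 18). In GLY-EV all 3 were in replicate 4: miR-15a-5p (18.7 CPM, 97 counts against 33, 20 and 13), miR-351-3p (6.18 CPM, 32 counts against 24, 21 and 17) and miR-450a-1-3p (1.93 CPM, 10 counts against 0 in each of the others). GLY-EV replicate 4 had the most miR counts of the 8 libraries.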

How the results depend on the processing

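miR-16-5p stayed lower and past the threshold under all 26 alternatives (log2 fold change -2.84 to -1.69). The number of members past it was 1 by edgeR on mapped reads and remained 1 under 16 alternatives, among them each library left out on mapped reads. It was 3 with TMM scaling and with DESeq2's size factors, and 2, miR-16-5p and miR-195a-5p, with DESeq2's own test and with only miRs of mean count 100 or more. DESeq2's own test gave miR-15b-5p and miR-497a-5p no adjusted p. Among miRs of mean count 100 or more, miR-16-5p and miR-195a-5p were the only members tested. With TMM and each library left out in turn, a setting chosen after seeing the data, it was 1 to 3.

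Over all miRs 29 passed, 1 higher and 28 lower. The count was 86 with TMM (1 higher), 86 with DESeq2's size factors, 54 scaled to total reads, 90 by DESeq2 (30 higher), 64 among miRs of mean count 100 or more, and 236 scaled to total miR counts (188 higher). It was 10 to 29 without each library, and 61 to 83 with TMM as well. Directions turned only for members never past the threshold. miR-497a-5p was 0.43 scaled to total miR counts and -0.46 to 0.58 without a library (-0.68 to -0.14 with TMM), miR-15b-5p was 0.10 with limma-voom and -1.60 to 0.36 without a library (-1.71 to -0.25 with TMM), and miR-15a-5p was -0.19 to 1.65 (-0.38 to 0.81 with TMM) without a library.

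The family's share of the miR counts kept its order between groups, at 1.37% and 3.16% with miR-1a-3p and miR-206-3p left out of the total, and 0.379% to 0.478% and 1.22% to 1.30% without a library. Deviations from the group means correlated at 0.154, -0.130, -0.106 and 0.0433 between the libraries of replicates 1 to 4. Other OXI-EV and GLY-EV libraries correlated at -0.193 to 0.357. The replicate 2 libraries carry different numbers in their names, 3 and 2. Such correlations cannot show whether libraries came from the same mouse, so pairing was not settled. With a replicate block 42 miRs and 1 member passed, and miR-16-5p kept its call. The 5 miRs most like miR-16-5p were the same 5 with a mean count of at least 30. The 5 members with mean counts under 100 lie where edgeR called no miR on mapped reads, and miR-322-5p alone among them was called, with TMM and with DESeq2's size factors.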
